A study of Zea mays with 12 samples.

Results

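At all 3 ages sampled, the 122 genes described here had high RNA levels in samples of the basal endosperm transfer layer (BETL) of the maize kernel. The same genes had much lower levels in samples of the maternal transfer zone (MATZ). They were chosen from 39423 gene models of an expression table in FPKM (fragments per kilobase of transcript, scaled to the mapped fragments of the library, a level per length). A gene was taken when its mean over the BETL libraries was at least 50 FPKM and its BETL mean + 1 was at least 4 times its MATZ mean + 1 at each of 8, 14 and 20 days after pollination (DAP). These conditions were met by 136 genes (0.345% of all gene models), and 14 of them were left out by gene number because they belong to a list of 25 genes that includes the classical BETL genes. Each condition was met by 249 genes at 8 DAP (0.632%), by 410 at 14 DAP (1.04%) and by 328 at 20 DAP (0.832%). The BETL/MATZ ratio at each age was used in the choice, so it is given below as a description without a test.

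All libraries came from wild-type kernels of the inbred line W22, taken from ears of plants grown in the field, and the tissues were cut apart from frozen kernels by cryomicrodissection. The 6 groups were BETL and MATZ at 8 DAP, at 14 DAP and at 20 DAP, with 2 libraries in each group and 12 in all. Whether the 2 libraries of a group are from different plants or ears is not stated in the labels. The p-values therefore measure the spread between these samples, which may be technical. In bulk tissue, fewer cells of a type and less RNA per cell cannot be told apart. Which cells the RNA in a MATZ sample came from was not tested.

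The BETL is the outermost layer of the endosperm at the base of the kernel, and its cells carry wall ingrowths that enlarge the membrane through which sugars, amino acids and minerals enter the seed. It faces the maternal placental tissue, from which these nutrients are released without a direct cell connection. In maize the BETL is also known for abundant small secreted proteins, some with antimicrobial activity. The MATZ is the maternal side of this interface.

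The summed FPKM per library lay between 731024 and 987477. Depth in fragments is not given, and if the smallest common step of the low values stands for 1 fragment, which is an inference, the libraries held 94000 to 707000 fragments. A value of 50 FPKM on a transcript of 1000 bp would then rest on 4.71 to 35.3 fragments, so values of 0 in MATZ say only that a gene is listed at 0. The 14 genes left out, used here as markers of the BETL, summed to 54697 to 66222 FPKM in BETL and 2572 to 3189 FPKM in MATZ at 8 DAP, to 58612 to 69022 FPKM in BETL and 7589 to 8426 FPKM in MATZ at 14 DAP, and to 92758 to 101068 FPKM in BETL and 11293 to 12671 FPKM in MATZ at 20 DAP. These 14 met the same rule as the set. Their excess in BETL was therefore fixed by the choice and is no check of the dissection. A list of 8 MATZ markers ran the other way, with 2894 to 3097 FPKM in BETL and 8857 to 9021 FPKM in MATZ at 8 DAP, 1123 to 1563 FPKM in BETL and 9287 to 10094 FPKM in MATZ at 14 DAP, and 832 to 928 FPKM in BETL and 12253 to 12500 FPKM in MATZ at 20 DAP. Zein storage protein genes, markers of starchy endosperm, stood apart at 14 DAP: their 26 genes summed to 4324 to 4449 FPKM in BETL and 11359 to 11709 FPKM in MATZ. At 8 DAP they summed to 74.3 to 84.0 FPKM in BETL and 52.4 to 81.1 FPKM in MATZ, and at 20 DAP to 1499 to 1550 FPKM in BETL and 857 to 1204 FPKM in MATZ.

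As a share of the library total, the 122 genes held 22.8% and 24.1% of the BETL libraries of 8 DAP, 32.5% and 31.0% of those of 14 DAP, and 37.1% and 38.7% of those of 20 DAP. Their share of the MATZ libraries was 0.693% and 0.951% at the first age, 3.73% and 3.87% at the second, and 3.9% and 3.67% at the third. Their summed level in BETL was 209624 ± 10939 FPKM at 8 DAP, 287119 ± 12504 FPKM at 14 DAP and 373956 ± 11452 FPKM at 20 DAP (SD, n = 2 each). In MATZ the sum was 6559 ± 1935, 27999 ± 1006 and 30767 ± 1616 FPKM at the same ages (SD, n = 2 each). A single gene, GRMZM2G406552, made up 31.4% of the BETL sum at 8 DAP, 46.0% at 14 DAP and 56.9% at 20 DAP. Without it the BETL sum was 143758 ± 4566, 154936 ± 10067 and 161191 ± 7886 FPKM at 8, 14 and 20 DAP, so most of the difference between ages in the sum lay in that gene.

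**Figure D1:**
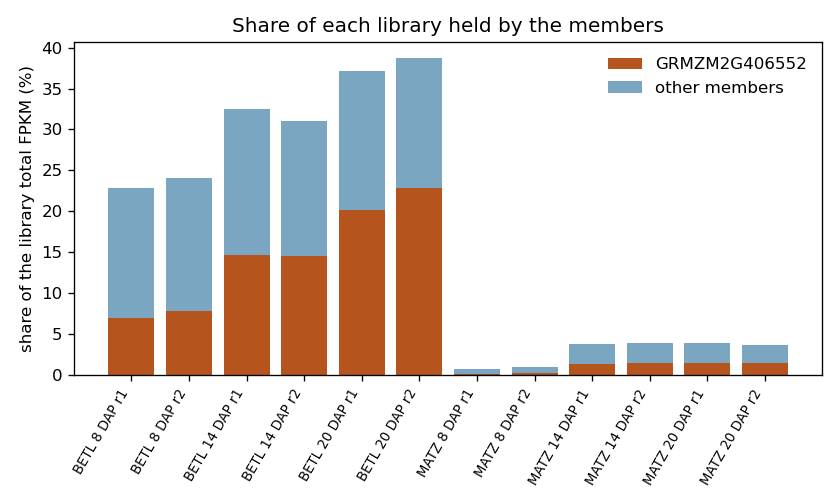
Share of the summed FPKM of each of the 12 libraries (y axis, percent) held by the 122 genes, split into GRMZM2G406552 and the others, for BETL on the left and MATZ on the right, with 1 bar per library. GRMZM2G406552 alone held 6.94% to 22.9% of the BETL libraries and 0.131% to 1.48% of the MATZ libraries.

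GRMZM2G406552 (chromosome 4, 195759880 to 195760460 in the coordinates of the deposited table, reverse strand, no descriptive name in the reference table) ranked 2 among all gene models in BETL at 8 DAP and 1 at 14 and 20 DAP. It had 61359 and 70372 FPKM in BETL at 8 DAP, 133907 and 130460 FPKM at 14 DAP, and 199091 and 226439 FPKM at 20 DAP. In MATZ it had 982 and 1777 FPKM at 8 DAP, 9615 and 10878 FPKM at 14 DAP, and 12082 and 11417 FPKM at 20 DAP. Within each tissue both 14 DAP libraries lay above both 8 DAP libraries. At 14 DAP against 8 DAP the change on the log2(FPKM + 1) scale was 1.01 ± 0.22 in BETL (SE, limma, adjusted p = 0.0193) and 2.95 ± 0.22 in MATZ (limma, adjusted p = 9.7e-05). The BETL call was lost under median-of-ratios scaling and whenever a BETL library of 8 or 14 DAP was left out. At 20 DAP against 14 DAP the BETL change of 0.68 ± 0.22 did not pass the test (limma, adjusted p = 0.306), although the libraries did not overlap.

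The 12 genes with the highest BETL mean over the 3 ages held 75.9% of the summed BETL level of the 122. After GRMZM2G406552 came GRMZM5G897740 (chromosome 5, 215320399 to 215321009), with 4671 and 4364 FPKM in BETL at 8 DAP, 20745 and 14967 FPKM at 14 DAP, and 33870 and 30675 FPKM at 20 DAP. Its BETL libraries did not overlap between ages, and the change at 14 DAP against 8 DAP was 1.96 ± 0.19 (limma, adjusted p = 0.000387). GRMZM2G107302 (chromosome 4, 1508758 to 1509325) ran in the opposite direction, with 25086 and 24289 FPKM in BETL at 8 DAP, 7264 and 6265 FPKM at 14 DAP, and 3127 and 2801 FPKM at 20 DAP. It fell in BETL at 14 DAP against 8 DAP by 1.87 ± 0.36 on the log2 scale (limma, adjusted p = 0.0112), a call lost under quantile normalization and without BETL replicate 1 of 8 DAP or either BETL library of 14 DAP. GRMZM5G843972, with 3568 and 4209 FPKM at 8 DAP, 3328 and 4320 FPKM at 14 DAP and 14872 and 14292 FPKM at 20 DAP, had its highest libraries at the last age, but its change of 1.94 ± 0.43 at 20 DAP against 14 DAP did not pass the test (limma, adjusted p = 0.0902). The other high genes included GRMZM2G132162, with BETL means of 5207, 5899 and 4696 FPKM at 8, 14 and 20 DAP, and GRMZM2G082799, with 7674, 7658 and 5042 FPKM.

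**Figure D2:**
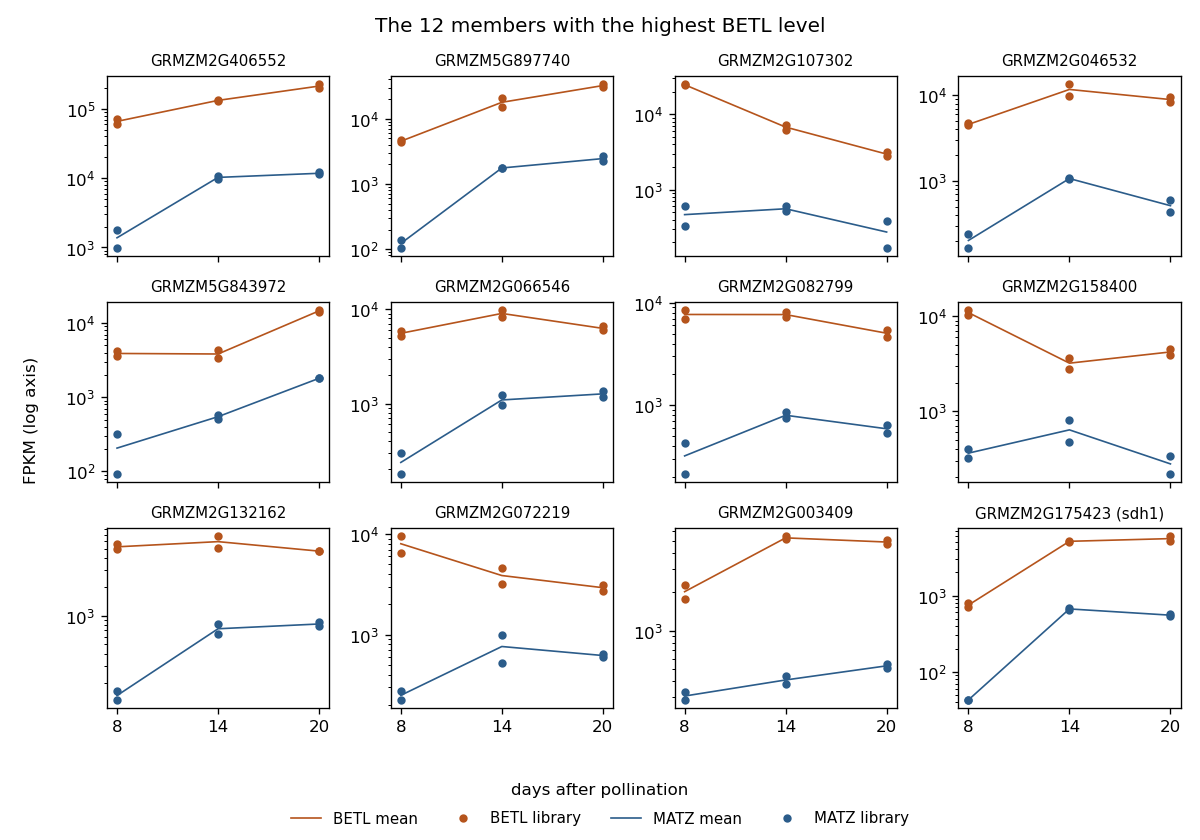
FPKM (log y axis, a separate range per panel) against days after pollination for the 12 genes with the highest BETL level, with BETL and MATZ libraries as points (n = 2) and their means as lines. In each panel every BETL point lies above every MATZ point at the same age, and the BETL lines run upward, downward or nearly flat.

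The 12th gene of this group was sdh1 (GRMZM2G175423, chromosome 1, 197267922 to 197271011), which encodes sorbitol dehydrogenase, an enzyme that interconverts sorbitol and fructose. It had 796 and 704 FPKM in BETL at 8 DAP, 5043 and 5188 FPKM at 14 DAP, and 5155 and 5949 FPKM at 20 DAP. In MATZ it had 43.4 and 42.8 FPKM at 8 DAP, 643 and 692 FPKM at 14 DAP, and 536 and 570 FPKM at 20 DAP. In both tissues the 8 DAP libraries lay far below the later ones. At 14 DAP against 8 DAP it rose by 2.77 ± 0.15 in BETL (limma, adjusted p = 1.03e-05) and by 3.92 ± 0.15 in MATZ (limma, adjusted p = 1.08e-06), on the log2 scale, while at 20 DAP against 14 DAP its BETL change was 0.11 ± 0.15 (limma, adjusted p = 0.964).

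Of the 122 genes, 75 matched a record of the reference table and 11 carried a descriptive name, so most of the set is known here by number alone. Besides sdh1, the name with the highest BETL level was cystatin8 (GRMZM2G401374), a cysteine protease inhibitor, with 4037 and 3472 FPKM in BETL at 8 DAP, 1557 and 1302 FPKM at 14 DAP and 2211 and 1868 FPKM at 20 DAP. Its BETL libraries did not overlap between 14 and 8 DAP, but the change of -1.39 ± 0.46 did not pass the test (limma, adjusted p = 0.0757). The basal layer antifungal protein gene bap1-b (GRMZM2G008403), which has a near-identical relative and is therefore uncertain, had 125 and 235 FPKM in BETL at 8 DAP, 59.3 and 128 FPKM at 14 DAP, and 74.4 and 39.0 FPKM at 20 DAP. Its libraries overlapped between 14 and 8 DAP and between 20 and 14 DAP.

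Other named genes encode enzymes. The dehydroascorbate reductase gene dhar2 (GRMZM2G005710), whose product recycles ascorbate, averaged 415 ± 40, 1044 ± 153 and 1106 ± 129 FPKM in BETL and 2.53 ± 3.57, 48.1 ± 9.65 and 85.6 ± 21.9 FPKM in MATZ at 8, 14 and 20 DAP (SD, n = 2 each). In MATZ it rose at 14 DAP against 8 DAP by 4.31 ± 0.64 (log2, limma, adjusted p = 0.00531), and the BETL change of 1.33 ± 0.64 did not pass (limma, adjusted p = 0.217). The MATZ libraries of 8 DAP had 5.06 and 0 FPKM, so the size of the MATZ change depends on the added 1. The genes gpc4 (GRMZM2G176307) and gpc3 (GRMZM2G071630), which encode cytosolic glyceraldehyde-3-phosphate dehydrogenase of glycolysis and are similar enough to share reads, averaged 361, 443 and 429 FPKM and 301, 265 and 119 FPKM in BETL at the 3 ages. None of their changes between ages passed the test in either tissue. P4H6 (GRMZM2G054224), a prolyl 4-hydroxylase gene, was among the steadiest of the set in BETL, with 291 ± 13.2, 316 ± 26.4 and 313 ± 5.7 FPKM at 8, 14 and 20 DAP (SD, n = 2 each).

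The genes on the list of regulators were DOF36 and baf1. DOF36 (GRMZM2G137502), a DOF zinc finger transcription factor gene, had 167 and 147 FPKM in BETL at 8 DAP, 350 and 233 FPKM at 14 DAP, and 225 and 241 FPKM at 20 DAP, and its BETL change at 14 DAP against 8 DAP did not pass (0.86 ± 0.39, limma, adjusted p = 0.178). The gene baf1 (GRMZM2G072274), known as barren stalk fastigiate1 and encoding an AT-hook protein that acts in ear initiation, averaged 117 ± 23.6, 150 ± 55.1 and 169 ± 28.9 FPKM in BETL at the 3 ages (SD, n = 2 each). Both rose in MATZ at 14 DAP against 8 DAP, DOF36 by 2.59 ± 0.39 (limma, adjusted p = 0.00515) and baf1 by 2.94 ± 0.68 (limma, adjusted p = 0.0353), and the baf1 call was lost under 13 of 21 other settings. The MATZ values were low, with 14.6 and 18.6 FPKM against 1.74 and 2.07 FPKM for DOF36. For baf1 they were 24.4 and 6.70 FPKM against 0 and 2.33 FPKM. The sizes of these changes therefore depend on the added 1. The embryo surrounding region gene esr6 (GRMZM2G048353), of a family with similar copies, had 134 and 108 FPKM in BETL at 8 DAP, 348 and 348 FPKM at 14 DAP, and 177 and 171 FPKM at 20 DAP, and endo1 (GRMZM2G144610) averaged 739, 507 and 383 FPKM.

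Functional lists were matched to the set by symbol. Lists of sugar entry (9 genes in the table), ion and nutrient transport (53), cell wall (45) and hormone genes (62) had 0 genes in the set. The list of small secreted and defense genes (28) had 2, bap1-b and cystatin8, and the list of regulators (270) had 2, baf1 and DOF36. The genes left out by number that met the rule included 10 on the small secreted and defense list, 1 on the sugar entry list and 1 on the cell wall list. That exclusion lowered the counts of these lists. It took 0 genes from the ion and nutrient transport, hormone and regulator lists. Of all gene models 0.309% belonged to the set, so a count of 0 on lists of this size is not read as a lack. With 11 names among 122 genes, these counts also cover little of the set.

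The genes differed in the age of their highest BETL mean, which was 8 DAP for 35 genes, 14 DAP for 42 and 20 DAP for 45. The highest age mean was a median of 2.57 times the lowest (range 1.04 to 29.7), with 23 genes at 4-fold or more and 42 under 2-fold. The BETL mean over the 3 ages was 1000 FPKM or more in 30 genes and under 100 FPKM in 10, with a median of 339 FPKM and a lowest value of 52.1 FPKM. The median gene averaged 270, 318 and 317 FPKM in BETL and 7.07, 34.4 and 42.1 FPKM in MATZ at 8, 14 and 20 DAP. Spread between the libraries of a group was smaller in BETL, with a median SD of 0.178, 0.179 and 0.132 (log2) at the 3 ages, than in MATZ, with 0.58, 0.419 and 0.444. The rule set these genes high in BETL and lower in MATZ. The spreads are therefore at unlike levels and do not compare the quality of the libraries.

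**Figure D3:**
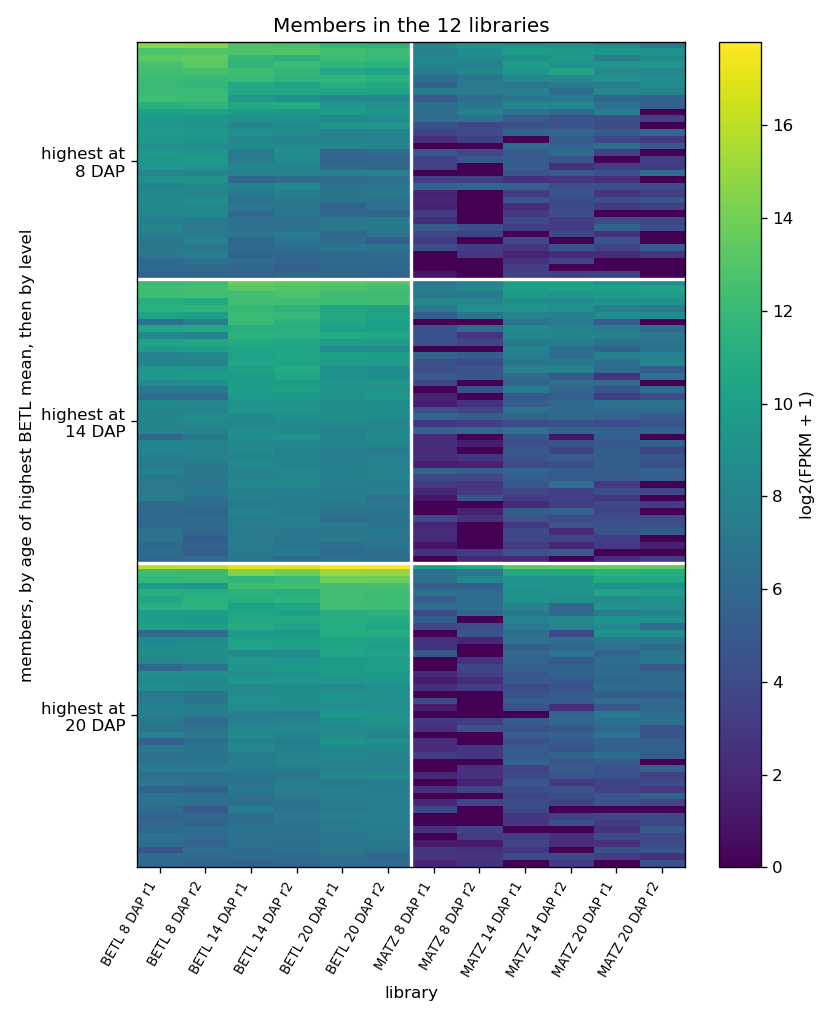
Level of each of the 122 genes (rows) in each library (columns, BETL left and MATZ right) as log2(FPKM + 1) in colour, grouped by the age of the highest BETL mean, which holds 35, 42 and 45 genes from top to bottom, and ordered by level within each block. The darkest cells are values listed at 0, which occur in MATZ alone and most often at 8 DAP.

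Changes between ages were tested with limma on 24213 genes with at least 1 FPKM in 2 or more libraries, a filter all 122 passed through their BETL level, and a gene was called at an adjusted p (Benjamini-Hochberg) under 0.05. The rule used the same libraries, though not the difference between ages, and it held MATZ below BETL at each age. All tested genes were not chosen in this way, so their shares are given for scale and are not a like comparison. In BETL at 14 DAP against 8 DAP, 21 of the 122 genes were called, where 11.6% of all tested genes were. Of these, 16 rose, where 9.06% of all tested genes did, and 5 fell, where 2.58% did. The median change was 0.43 over the set and 0.75 over all tested genes in this fit. The median over all tested genes followed the processing, with 0.365 at a pseudocount of 5 and -0.03 under quantile normalization. The order of the medians of the set and of all tested genes is therefore not read further. The libraries of the 2 ages did not overlap for 63 genes that were higher at 14 DAP (37.3% of all tested genes) and for 30 that were lower (9.38%).

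Among the genes that rose in BETL by 14 DAP, the largest change was that of GRMZM2G095337, with 4568 and 2769 FPKM at 14 DAP against 112 and 197 FPKM at 8 DAP. This was a change of 4.57 ± 1.22 (limma, adjusted p = 0.04), lost under 15 of 21 other settings. GRMZM2G044822 had 747 and 700 FPKM at 14 DAP against 80.0 and 73.6 FPKM at 8 DAP, a change of 3.22 ± 0.54 (limma, adjusted p = 0.00632). GRMZM2G014705 had 2884 and 2484 FPKM at 14 DAP against 370 and 233 FPKM at 8 DAP, a change of 3.18 ± 0.47 (limma, adjusted p = 0.0037). At 20 DAP these 3 genes averaged 1211, 605 and 1676 FPKM in BETL, and none of their changes at 20 DAP against 14 DAP passed the test. GRMZM2G045082 and GRMZM2G159691 also rose, by 2.36 ± 0.43 (limma, adjusted p = 0.00881) and 2.22 ± 0.4 (limma, adjusted p = 0.00898). The calls of GRMZM2G044822 and GRMZM2G045082 were lost without BETL replicate 1 of 14 DAP, and that of GRMZM2G159691 without BETL replicate 1 of 8 DAP or replicate 2 of 14 DAP.

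The 5 genes that fell in BETL by 14 DAP had BETL means of 1000 FPKM or more at 8 DAP, with 1 exception. GRMZM2G426158 had 758 and 552 FPKM at 14 DAP against 4925 and 4531 FPKM at 8 DAP, a change of -2.87 ± 0.39 (limma, adjusted p = 0.00229). GRMZM2G158400 had 3642 and 2762 FPKM at 14 DAP against 10284 and 11579 FPKM at 8 DAP, a change of -1.78 ± 0.29 (limma, adjusted p = 0.00515). Both kept their call in every alternative but the fit on the compared libraries alone. GRMZM2G136771, with 1702 and 1619 FPKM at 14 DAP against 4526 and 3961 FPKM at 8 DAP, fell by 1.35 ± 0.35 (limma, adjusted p = 0.0376), a call lost under 12 of 21 other settings, among them without any 1 of the BETL libraries. GRMZM2G107302 is described above. The exception, GRMZM2G166234, had 57.8 and 78.1 FPKM at 14 DAP against 575 and 559 FPKM at 8 DAP, the change of largest size among the 5 (-3.06 ± 0.64, limma, adjusted p = 0.0162), and this call was lost under 6 of 21 other settings, among them without any 1 of the BETL libraries of 8 or 14 DAP.

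Beside these BETL changes, the MATZ markers summed to 1123 to 1563 FPKM in BETL at 14 DAP against 2894 to 3097 FPKM at 8 DAP, and the embryo and embryo surrounding region markers to 1955 to 2778 FPKM against 790 to 976 FPKM. Their part in the BETL changes was not tested.

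The number of genes called in BETL depended on scaling and on single libraries. The deposited scale gave 16 higher and 5 lower, median-of-ratios scaling 9 and 9, and quantile normalization 16 and 3, and the median over all tested genes was 0.75, 0.44 and -0.03 under these scalings. The 21 calls became 12 or 13 without a BETL library of 8 DAP, 9 or 11 without one of 14 DAP, and 32 without MATZ replicate 2 of 8 DAP. A fit on the 4 compared libraries alone called 0 genes of the set, with 56 at an unadjusted p under 0.05 (limma).

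At 20 DAP against 14 DAP in BETL, 2 of the 122 genes were called, where 0.801% of all tested genes were. These were 1 gene that rose (0.277% of all tested genes) and 1 that fell (0.525%), and the median change was -0.02 over the set and 0.0 over all tested genes. GRMZM2G079547 had 5301 and 4738 FPKM at 20 DAP against 2697 and 2211 FPKM at 14 DAP, and rose by 1.04 ± 0.19 (limma, adjusted p = 0.0444). GRMZM2G121137 had 618 and 521 FPKM at 20 DAP against 1830 and 1964 FPKM at 14 DAP, and fell by 1.74 ± 0.33 (limma, adjusted p = 0.0472). Libraries of the 2 ages did not overlap in either gene, but these calls were lost under 14 and 16 of 21 other settings, and the count became 0 without any 1 of the BETL libraries, 1 without a MATZ library of 14 DAP and 5 without one of 8 DAP.

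In MATZ, genes of the set were mostly higher at 14 DAP than at 8 DAP. At 14 DAP against 8 DAP, 63 of the 122 genes were called, where 5.58% of all tested genes were. The rule used these MATZ libraries and held the set low in them, unlike all tested genes, so the shares are not a like comparison. Of these, 61 rose, where 3.11% of all tested genes did, and 2 fell, where 2.48% did. The median change was 2.25 over the set and 0.14 over all tested genes, and 109 genes lay above 0. Libraries of the 2 ages did not overlap for 90 genes that were higher at 14 DAP (26.8% of all tested genes) and for 4 that were lower (14.0%). Of the 12 genes highest in BETL, 8 were among those that rose in MATZ.

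Several genes that rose in MATZ were listed at 0 there at 8 DAP, and no fold is given for them. GRMZM2G700896 had 243 and 91.5 FPKM in MATZ at 14 DAP and was listed at 0 in both libraries at 8 DAP (limma, adjusted p = 3.06e-05), while in BETL it averaged 1352 ± 31.3 FPKM at 14 DAP and 950 ± 73.7 FPKM at 8 DAP (SD, n = 2 each). GRMZM2G068202 had 65.4 and 43.4 FPKM in MATZ at 14 DAP and was listed at 0 in both libraries at 8 DAP (limma, adjusted p = 0.000193). GRMZM2G101497, with 43.8 and 48.3 FPKM at 14 DAP, and GRMZM2G081529, with 26.2 and 34.5 FPKM, were likewise listed at 0 at 8 DAP and passed the test (limma, adjusted p = 0.000874 and 0.000989). In all, 14 genes of the set were listed at 0 in both MATZ libraries at 8 DAP, 1 at 14 DAP and 5 at 20 DAP.

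Genes detected in MATZ at both ages changed as well. GRMZM5G897740 had 1742 and 1773 FPKM at 14 DAP against 104 and 140 FPKM at 8 DAP, a change of 3.85 ± 0.19 (limma, adjusted p = 5.91e-06). GRMZM2G014705 had 289 and 291 FPKM at 14 DAP against 21.0 and 6.44 FPKM at 8 DAP, a change of 4.51 ± 0.47 (limma, adjusted p = 0.000774). GRMZM2G132162 had 810 and 648 FPKM at 14 DAP against 131 and 162 FPKM at 8 DAP, a change of 2.3 ± 0.18 (limma, adjusted p = 0.000147), although its BETL change was 0.17 ± 0.18 (limma, adjusted p = 0.588). The 2 genes that fell were GRMZM2G090697, with 0 FPKM in both MATZ libraries at 14 DAP against 5.01 and 10.4 FPKM at 8 DAP (limma, adjusted p = 0.027), and endo1, with 34.6 and 22.0 FPKM against 82.5 and 97.4 FPKM, a change of -1.66 ± 0.34 (limma, adjusted p = 0.0225). These calls were lost under 8 and 5 of 21 other settings.

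The tissues shared part of these calls. Of the 16 genes that rose in BETL, 12 also rose in MATZ, which is 75% of the BETL list and 19.7% of the 61 in MATZ. Within the set as a whole 61 of 122 genes rose in MATZ, and over all tested genes 344 rose in both tissues, which is 15.7% of the BETL list and 45.7% of the MATZ list. None of the 5 that fell in BETL was called in MATZ, and 10 of the 61 that rose in MATZ had a BETL change below 0. At 14 DAP the marker lists also moved in MATZ: the BETL markers left out of the set summed to 12.5% of their BETL level, against 4.76% at 8 DAP, and the zeins are given above. The 10 embryo and embryo surrounding region markers, of which esr6 is also in the set, summed to 349 to 455 FPKM in MATZ at 14 DAP, against 24.0 to 57.4 FPKM at 8 DAP. The only aleurone marker matched, vpp1, had 37.4 to 65.2 FPKM in MATZ at 14 DAP, against 13.5 to 20.0 FPKM at 8 DAP. It was also higher in BETL, with 42.6 to 43.8 FPKM at 14 DAP against 20.7 to 21.1 FPKM at 8 DAP. The 13 photosynthetic tissue markers went the other way in MATZ, with summed values of 2.85 to 11.2 FPKM at 14 DAP against 21.1 to 24.0 FPKM at 8 DAP. The 122 genes summed in MATZ to 9.75% of their BETL level at 14 DAP, against 3.13% at 8 DAP. The part of these lists in the MATZ changes was not tested.

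**Figure D4:**
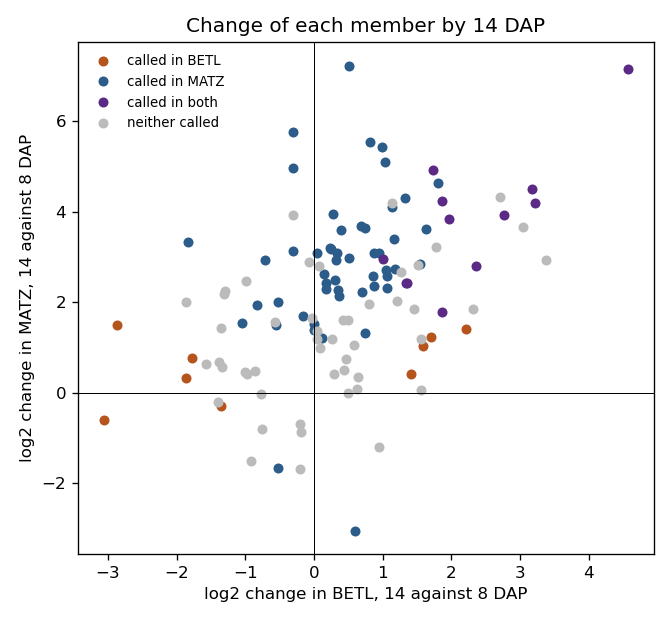
Change on the log2(FPKM + 1) scale at 14 DAP against 8 DAP in BETL (x axis) and in MATZ (y axis) for the 122 genes, coloured by which tissue called them (limma, adjusted p under 0.05). Most points lie above the horizontal line at 0, with 109 genes above it, while 83 lie to the right of the vertical line.

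With quantile normalization the MATZ count was 59, against 63 on the deposited scale. Leaving out MATZ replicate 2 of 14 DAP gave 39 calls, and a fit on the 4 compared libraries alone gave 0, with 58 genes at an unadjusted p under 0.05 (limma).

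At 20 DAP against 14 DAP in MATZ, 8 of the 122 genes were called, where 1.47% of all tested genes were. Of these, 3 rose, where 0.772% of all tested genes did, and 5 fell, where 0.698% did. The genes that moved in BETL at these ages moved the same way here: GRMZM2G079547 had 1329 and 1040 FPKM at 20 DAP against 548 and 582 FPKM at 14 DAP, a change of 1.06 ± 0.19 (limma, adjusted p = 0.0292), and GRMZM2G121137 had 87.5 and 39.2 FPKM against 299 and 289 FPKM, a change of -2.31 ± 0.33 (limma, adjusted p = 0.0108). GRMZM2G091054 had 73.0 and 34.6 FPKM at 20 DAP against 230 and 245 FPKM at 14 DAP, a change of -2.21 ± 0.36 (limma, adjusted p = 0.0209). GRMZM2G134064 (limma, adjusted p = 0.00276), esr6 (limma, adjusted p = 0.037) and GRMZM2G311656 (limma, adjusted p = 0.024) also fell, to values at or near 0. The GRMZM2G134064 call was lost under 1 of 21 other settings, that of GRMZM2G311656 under 7 and that of esr6 under 16, among them without any 1 of 11 of the 12 libraries. The other genes that rose were AC186147.3_FG008, with 79.8 and 67.5 FPKM at 20 DAP against 14.8 and 23.8 FPKM at 14 DAP (1.91 ± 0.36, limma, adjusted p = 0.0318), and GRMZM2G090697, with 5.74 and 30.9 FPKM at 20 DAP and listed at 0 in both libraries at 14 DAP (limma, adjusted p = 0.0233). Of the remaining calls, that of AC186147.3_FG008 was lost under 12 of 21 other settings, GRMZM2G079547 under 10, GRMZM2G090697 under 7, GRMZM2G091054 under 5 and GRMZM2G121137 under 3. The median change was 0.12 over the set and 0.0 over all tested genes. The count became 14 with quantile normalization and 3 without a mean trend, 15 or 16 without a MATZ library of 8 DAP, 2 without MATZ replicate 2 of 14 DAP, 3 without a BETL library of 20 DAP, and 15 or 4 without MATZ replicate 1 or 2 of 20 DAP.

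The BETL/MATZ ratio, which chose the set, was highest at 8 DAP. Its median over the 122 genes was 32.1 at 8 DAP, 10.1 at 14 DAP and 8.88 at 20 DAP, and the central 50% of genes lay between 14.5 and 60.7, between 7.09 and 12.9, and between 5.75 and 13.2 at these ages. For the 14 genes left out by number the medians were 31.0, 8.41 and 7.79. The lowest BETL library lay above the highest MATZ library for all 122 genes at each age. Ratios of genes listed at 0 in MATZ are set by the added 1 in the denominator, as for GRMZM2G700896 at 8 DAP.

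**Figure D5:**
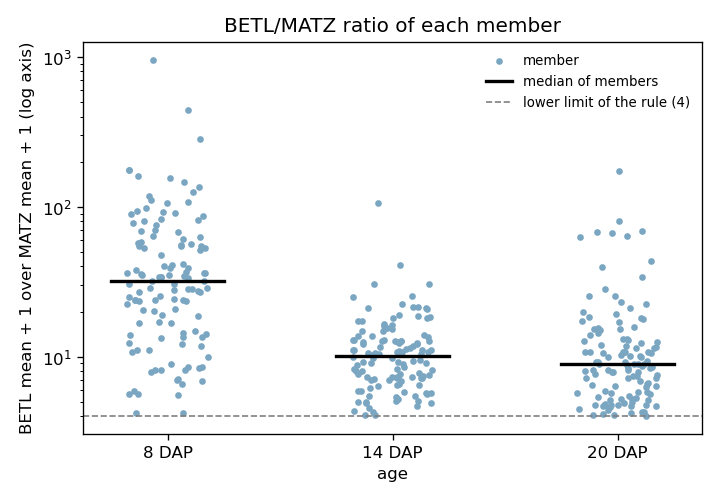
Ratio of BETL mean + 1 to MATZ mean + 1 (log y axis) for each of the 122 genes at 8, 14 and 20 DAP, with the median as a bar and the lower limit of the rule dashed. The median bars stand at 32.1, 10.1 and 8.88, and at 20 DAP the points reach down to the limit of 4.

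The change of this ratio between ages was lower for 22 genes at 14 DAP against 8 DAP, where 0.566% of all tested genes were, and higher for 0, where 0.702% were (limma, adjusted p under 0.05, 66 genes at an unadjusted p under 0.05 in either direction). Since this difference combines the ratios that chose the set, nothing is read from the count. It became 7 or 12 without BETL replicate 1 or 2 of 8 DAP, 7 or 14 without BETL replicate 1 or 2 of 14 DAP, 14 or 10 without MATZ replicate 1 or 2 of 14 DAP, and 8 without either BETL library of 20 DAP. At 20 DAP against 14 DAP, limma called 0 of the 122 genes, where 0.0372% of all tested genes were called, with 15 at an unadjusted p under 0.05.

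The limits of the rule cut through a continuous range. By their smallest ratio, the genes just inside were GRMZM2G111143 at 4.0, GRMZM2G047699 at 4.06, GRMZM2G081529 at 4.07, and AC199820.4_FG006 and GRMZM2G128832 at 4.09. Just outside were expA4 (GRMZM2G445169), an expansin gene, at 3.95, GRMZM2G056231 at 3.93, GRMZM2G158407 and GRMZM2G075459 at 3.84 and GRMZM2G138392 at 3.78. At the other end, the highest smallest ratios belonged to GRMZM2G095337 at 25.5, GRMZM2G041065 at 21.1, GRMZM2G044822 at 20.9, GRMZM2G109144 at 14.3 and GRMZM2G128531 at 14.0. The set was sensitive to the way the ratio was taken: 79 genes remained when the lowest BETL library was set over the highest MATZ library, and 153 genes, 119 of them shared, met the rule after median-of-ratios scaling.

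The genes were short and in part close together. Their median span was 1180 bp, against 2439 bp for all gene models and 2533 bp for the 4535 genes with a group mean of at least 50 FPKM. Spans under 1000 bp made up 44.3% of the set and 17.3% of those 4535 genes, and included 22 of the 30 genes at 1000 FPKM or more and 9 of the 12 highest. FPKM divides by length, so short transcripts weigh more per fragment, and the part of length in their levels was not tested.

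Another gene of the set lay within 100000 bp of 22 genes (18%). Among the 608 gene models within that distance of a gene of the set, 3.62% belonged to the set, against 0.309% of all gene models. Of the 19 neighbouring pairs, 3 had their highest BETL mean at the same age. The set held 35, 42 and 45 genes with their highest mean at 8, 14 and 20 DAP. Many pairs share a gene with another pair, so nothing is read from this count. The longest run, with gaps of at most 1 Mb, held 7 genes on chromosome 2 from 224914975 to 226394830, among them GRMZM2G066546, GRMZM2G082799 and GRMZM2G426158. A run of 5 on chromosome 4 from 210084462 to 210882566 included esr6, GRMZM2G158400 and GRMZM2G136771, and a run of 4 on chromosome 10 from 80864563 to 81173126 included bap1-b. Neighbours that are near-identical copies could share reads, and 6 genes overlapped another gene model on the other strand, among them the pairs AC186147.3_FG008 with GRMZM2G453424 and AC186166.3_FG008 with GRMZM2G133407. The counting is not stated to use strand, so the reads of such pairs cannot be told apart, and this applies to the MATZ change of AC186147.3_FG008.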

How the data were processed

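RNA-seq libraries of BETL and MATZ at 8, 14 and 20 DAP (2 per group, 12 in all) were used as 1 table of FPKM values that the authors deposited, per the file headers. Per the submitters' processing notes, the tools were TopHat2, Bowtie2 and Cufflinks. Tool versions, genome build and annotation were not given in the sources used here. The table's own coordinates are printed. The genes and lists were chosen with earlier results of these data known, and the rule left 25 genes out by number. Names came from a RefSeq gene table (Zm-B73-REFERENCE-NAM-5.0, names only, 18771 IDs matched). Sequences and promoters were not analysed here.

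Values were tested as log2(FPKM + 1), which understates changes of low genes, in genes with at least 1 FPKM in at least 2 libraries. One limma 3.58.1 fit (R 4.3.3, 6 group means, mean trend, 6 residual degrees of freedom) on all 12 libraries gave 6 comparisons: 14 against 8 DAP and 20 against 14 DAP in BETL, in MATZ, and the difference between the tissues in these changes. Adjustment of p-values was by Benjamini-Hochberg, over 24213 genes. Genes named were the 12 with the highest BETL mean, the 6 largest called changes per direction and comparison whose groups do not overlap, those with a descriptive name, the 5 on each side of the limit, the 5 with the highest smallest ratio and the 3 highest of each peak age. On simulated data 29% of log2 changes of 2 and 54% of 3 were recovered for 14 against 8 DAP in BETL. The simulation changed 100 genes by each size among 24213, with no other difference between groups. In the data 11.6% of all tested genes were called in this comparison. The adjustment of p-values therefore acted under unlike conditions, and the recovered shares are no measure of the power of this fit. Tables were made with pandas 2.3.3 and numpy 2.4.6 in Python 3.11.15 and plots with matplotlib 3.10.9. Alternatives were pseudocounts of 0.1 and 5, no filter and a filter at 5 FPKM, 2 other scalings, a replicate block, no mean trend, the compared groups alone and each library left out.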

Additional observations from a re-analysis of the deposited data

Results flagged for a closer look

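The change to 14 DAP from 8 DAP on the log2(FPKM + 1) scale was called as different between BETL and MATZ (limma, adjusted p under 0.05) for 22 of the 122 genes, each lower in BETL, where 0.566% of all tested genes were. The ratios that this interaction compares also chose the genes, so it is given as a description and nothing is read from it. For the change to 20 DAP from 14 DAP the difference was called for 0 genes (limma, 15 at an unadjusted p under 0.05).

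Among the genes that the naming rule took from this comparison, GRMZM2G426158 was above 0 in every library, with BETL means of 655 FPKM at 14 DAP against 4728 FPKM at 8 DAP and MATZ means of 144 FPKM against 56.1 FPKM, and its fitted difference was -4.37. GRMZM2G137959 was listed at 0 in 1 of the MATZ libraries of 8 DAP and had 24.7 and 14.8 FPKM in MATZ at 14 DAP, and its fitted difference was -5.17. GRMZM2G068202, GRMZM2G081529, GRMZM2G101497 and GRMZM2G700896 were listed at 0 in both MATZ libraries at 8 DAP. Their fitted differences of -6.07, -5.27, -4.73 and -6.72 depend on the added 1, so they are no measure of size or order.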

How the results depend on the processing

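No alternative reversed a called change of a named gene. Over all named genes and comparisons, called or not, 5805 alternatives kept their side of the threshold, 392 lost a call and 103 gained one. The 5805 include genes that were not called in the main fit and stayed so. They are therefore no measure of how stable the calls were, and the 392 can only come from calls of the main fit. A fit on the compared groups alone called 0 genes in BETL and in MATZ at both age steps (56, 45, 58 and 20 at an unadjusted p under 0.05 in limma for BETL 14 against 8 DAP, BETL 20 against 14, MATZ 14 against 8 and MATZ 20 against 14), 0 in the difference of the tissues at 14 against 8 DAP (65 unadjusted), and 2 at 20 against 14 DAP. Without a mean trend the counts were 11 for BETL 14 against 8 DAP, 0 for BETL 20 against 14 DAP (13 unadjusted in limma), 3 for MATZ 20 against 14 DAP and 4 for the difference at 14 against 8 DAP. A pseudocount of 5 gave 35 calls in BETL at 14 against 8 DAP and 1 at 20 against 14 DAP, and a pseudocount of 0.1 gave 3 for the difference at 20 against 14 DAP. BETL 20 against 14 DAP had 1 call without a filter and with median-of-ratios scaling, and 0 with quantile normalization (22 unadjusted in limma), which gave 14 in MATZ at 20 against 14 DAP.

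Leaving out 1 library at a time gave 9 to 32 calls for BETL 14 against 8 DAP, 0 to 5 for BETL 20 against 14, 39 to 63 for MATZ 14 against 8, 2 to 16 for MATZ 20 against 14, 7 to 23 for the difference at 14 against 8 and 0 to 3 at 20 against 14, and 115 to 126 genes that meet the rule. The rule kept 79 genes when the lowest BETL library was both held to the level limit and set over the highest MATZ library, which is stricter. The causes were not tested.

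Deviations of same-numbered libraries correlated at -0.017 to 0.016 over 15 pairs of groups. These values were taken over all tested genes, where noise of low genes can hide a shared origin. They therefore do not tell whether the libraries were paired. With a replicate block the calls were 20 for BETL 14 against 8 DAP, 1 for BETL 20 against 14, 62 for MATZ 14 against 8, 7 for MATZ 20 against 14, 18 for the difference at 14 against 8 and 0 at 20 against 14 DAP. What depth limits was not tested, since the fragments per library were only inferred.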
